A study of Oryza sativa with 6 samples.

Results

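In rice (Oryza sativa) anthers, 96 loci with MSTRG identifiers had at least 20 FPKM in every wild-type library, in every dmd1 library or in both. They were taken from 2933 rows of that kind in a table of 94013 rows. FPKM counts fragments per unit of transcript length and of sequencing depth. The identifiers carry no gene name, and the level of 20 FPKM in the same libraries chose the loci, so the levels themselves are a description. In the same way, 7166 of 37830 rows with annotation identifiers that begin with OS met the level and served as the comparison.

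As background, MSTRG is the default prefix that the transcript assembler StringTie gives to loci it merges from aligned reads. Such loci can be long non-coding RNAs, antisense RNAs, transposons, unannotated coding genes or fragments of annotated genes, and the identifier does not say which. Grass anthers are known for abundant long non-coding transcripts, among them the precursors of phased small RNAs made in reproductive tissue. Neither sequence nor position of the loci was analysed here, so no role is given to any of them.

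The libraries came from anthers of 3-month-old plants, sampled from the tetrad stage, when meiosis has ended, to the early microspore stage. Each genotype, wild type and the mutant dmd1 (defective microspore development 1), gave 3 libraries, which the series design calls biological replicates. The labels used here name neither the allele nor the variety, and whether a library pools several plants is not given. All 10 tapetum genes checked (the tapetum is the inner anther wall layer that feeds the microspores) were detected at 2.39 FPKM or more in every library. Anthers are bulk tissue, so fewer cells of a type and less RNA per cell cannot be told apart.

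FPKM totals ran from 808227 to 1287424 per library, and steps in the low values gave relative depths from 0.858 to 1.42 times that of wild-type library 1, without absolute depth. The highest, of dmd1 library 3, is uncertain, since only 2.58% of low rows lay at its step. For dmd1 library 1 the share was 4.25%, and for the other libraries 10.4% to 11.3%. Wild-type library 2 and dmd1 library 1 stood at one end of the main axis of spread within genotypes, which held 58.2% of that variance. No label names a batch for this axis. The tapetum genes summed to between 38160 and 43122 FPKM in wild type and to between 3806 and 9256 FPKM in dmd1, with 1 risen and 5 fallen (limma, with a call requiring adjusted p below 0.05 together with 1 log2 unit of change). Of 3 green tissue genes, 1 fell, and their sum was 141 to 269 FPKM in wild type and 64.6 to 106 in dmd1. PCNA, the replication clamp gene of dividing cells, stood at 18.9 to 22.0 FPKM in wild type and 38.0 to 42.0 in dmd1. The part of these genes' cell types in the values of the MSTRG loci was not tested.

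Of the 96 loci, 50 reached 20 FPKM in all 6 libraries, 22 in wild type only and 24 in dmd1 only. Thus 52.1% of the loci met the level in both genotypes, against 75.6% of the OS rows (5414 of 7166). The share that met it in wild type only was 22.9% against 11.3% of OS rows, and in dmd1 only 25% against 13.1%. Only 3.27% of MSTRG rows reached the level at all, against 18.9% of OS rows.

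The 96 loci held a small part of the summed FPKM, which is scaled by transcript length and is no share of RNA mass. Their share of a library's summed FPKM was 0.492%, 0.606% and 0.528% in wild-type libraries 1, 2 and 3 and 0.827%, 0.816% and 0.659% in dmd1 libraries 1, 2 and 3. The genotypes did not overlap, though these levels were what chose the loci. MSTRG.24753 alone made up 19.3% to 19.8% of the loci's sum in wild type and 25.7% to 28.7% in dmd1. Without MSTRG.24753 the share was 0.395% to 0.489% in wild type and 0.470% to 0.607% in dmd1, and the genotypes then overlapped.

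**Figure D1:**
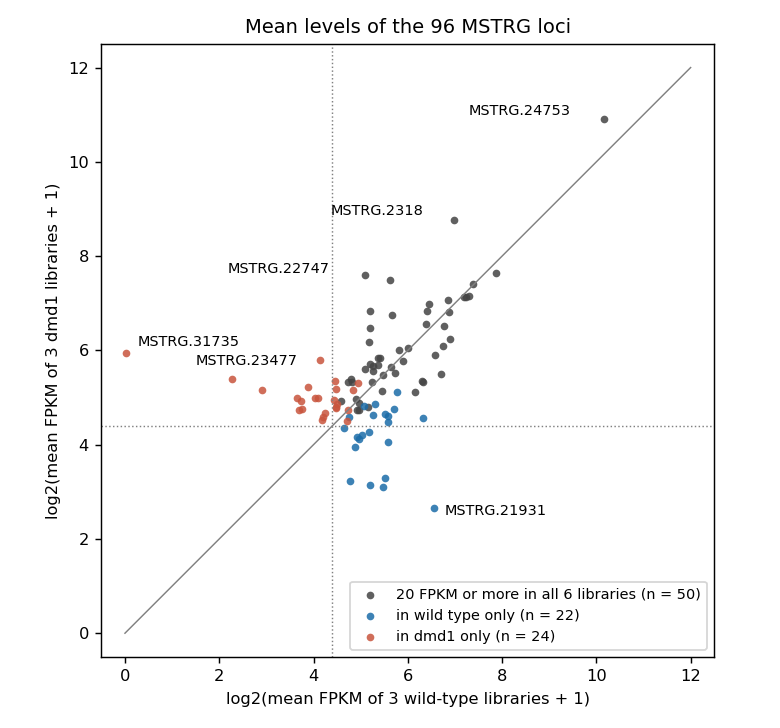
Mean level of each of the 96 loci in wild type (x axis) and dmd1 (y axis), as log2(mean FPKM + 1) over 3 libraries per genotype. Colours mark where the level of 20 FPKM (dotted lines) was met, and MSTRG.31735 lies near 0 in wild type.

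The 50 loci at 20 FPKM or more in all 6 libraries were mostly of moderate level. By their mean over the 6 libraries, 21 were below 50 FPKM, 17 lay between 50 and 100, 9 between 100 and 200, and 3 at 200 FPKM or more. The median of these means was 59.1 FPKM, close to 52.4 FPKM for the 5414 OS rows.

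MSTRG.24753 was the most abundant locus by a wide margin. Wild-type libraries 1, 2 and 3 held 981, 1504 and 941 FPKM of it, against 2342, 1908 and 1530 FPKM for dmd1 libraries 1, 2 and 3. Every dmd1 library was above every wild-type library, but the lowest dmd1 value exceeded the highest wild-type value only narrowly. The means were 1142 ± 314 and 1927 ± 406 FPKM (SD, n = 3), and the log2 change of 0.77 ± 0.27 (SE) did not pass (limma adjusted p = 0.108). With quantile normalization it did pass, at a log2 change of 1.33 (adjusted p = 0.00323). With equal FPKM totals the adjusted p was 0.00716, but the log2 change of 0.97 stayed under 1, as it did in the main fit. Among all rows of a library MSTRG.24753 ranked between 87 and 100 in wild type and between 33 and 38 in dmd1.

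MSTRG.2318, the next in mean level, varied widely between libraries. Wild-type libraries 1, 2 and 3 held 112, 236 and 25.8 FPKM, and dmd1 libraries 1, 2 and 3 held 738, 238 and 323 FPKM. Wild-type library 2 and dmd1 library 2 were nearly level, while dmd1 library 1 stood far above the rest. Its log2 change of 2.10 ± 0.83 did not pass (limma adjusted p = 0.143). Omitting wild-type library 3 gave 1.23, omitting dmd1 library 1 gave 1.63, and omitting wild-type library 2 gave 2.80.

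The other 4 of the 6 most abundant loci did not pass the test, and their genotypes overlapped. MSTRG.38131 held 184, 348 and 169 FPKM in wild type and 219, 241 and 136 in dmd1, averaging 234 ± 99.5 and 199 ± 55.7 FPKM (SD, n = 3, limma adjusted p = 0.74). MSTRG.29440 varied least of these 4, at 164, 156 and 180 FPKM in wild type and 131, 189 and 185 in dmd1 (limma adjusted p = 0.986). All its wild-type values lay within the dmd1 range.

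MSTRG.33144 and MSTRG.33155 showed almost the same values in every library. MSTRG.33144 had 148, 131 and 188 FPKM in wild type and 154, 209 and 58.3 in dmd1. MSTRG.33155 had 142, 131 and 176 FPKM in wild type and 140, 218 and 62.1 in dmd1. Both were lowest in dmd1 library 3 and highest in dmd1 library 2, and neither passed (limma adjusted p = 0.684 and 0.724). Whether the pair shares sequence, and so reads, was not analysed here, so their separate levels are uncertain.

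Across the 50 loci, 4 rose (8%) and 1 fell (2%) in dmd1 against wild type, so 10% were called. Of all 25474 rows tested, 6.71% were called, with 3.16% risen and 3.54% fallen. Of the 5414 OS rows at the same level 5.73% were called, with 2.48% risen and 3.25% fallen. With equal FPKM totals 6 loci rose and 0 fell, with median-of-ratios scaling 3 rose and 1 fell, and with quantile normalization 7 rose and 1 fell. Among all calls of the table the share of rises was 47.2% in the main fit. It was 62.9% with equal totals, 35.8% with median-of-ratios scaling and 40.6% with quantile normalization. In that order these scalings called 9.3%, 7.31% and 7.64% of all rows tested. Leaving out dmd1 library 2 reduced the calls to 2, as did leaving out either of wild-type libraries 1 and 3. The count was 3 with dmd1 library 1 omitted, 4 with dmd1 library 3 omitted and 7 with wild-type library 2 omitted. With so few loci the counts are small, and the difference between MSTRG and OS rows was not tested. A locus was not admitted to these 50 through a difference between genotypes, so the fit over all rows can be read for them.

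**Figure D2:**
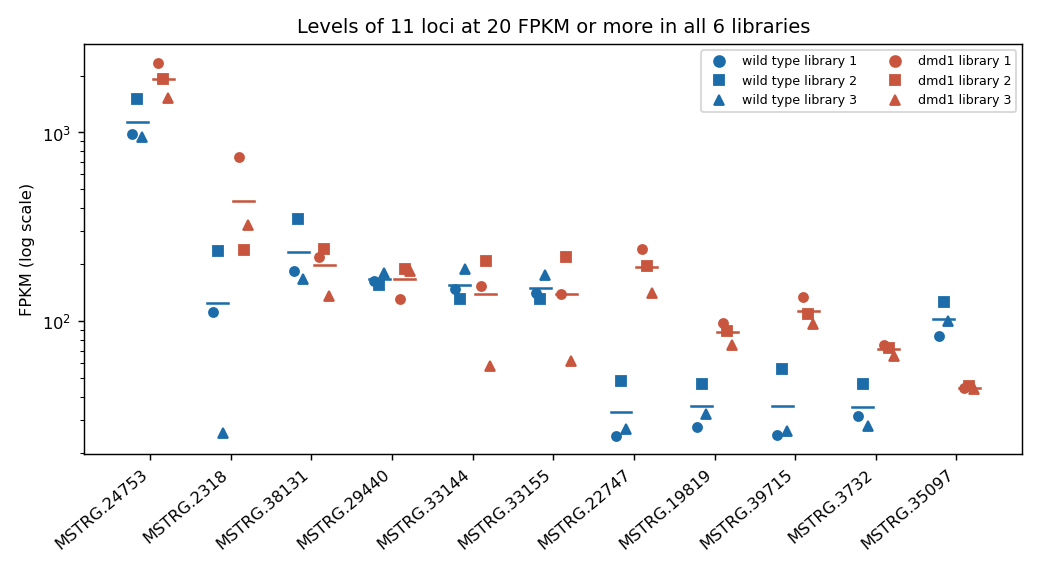
FPKM (log scale) of 11 loci in each of the 6 libraries, with wild type in blue, dmd1 in red, a symbol per library number and a bar at the mean of 3. The 4 loci that rose and MSTRG.35097, which fell, have no overlap between genotypes.

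MSTRG.22747 had the largest change of the 50 loci. Its wild-type libraries held 24.8, 48.1 and 26.8 FPKM and its dmd1 libraries 243, 195 and 142 FPKM. All dmd1 libraries lay far above all wild-type libraries. The mean rose 5.81-fold, from 33.2 ± 12.9 to 193 ± 50.6 FPKM (SD, n = 3), by 2.53 ± 0.31 on the log2 scale (SE, limma adjusted p = 0.00755). Alone among the 4 rises, MSTRG.22747 stayed called whichever single library was left out.

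MSTRG.39715 read 24.95, 55.9 and 26.3 FPKM in the wild-type libraries, against 135, 110 and 96.3 FPKM in dmd1. It rose 3.18-fold, by 1.73 ± 0.33 on the log2 scale (limma adjusted p = 0.0228). In this locus too, wild-type library 2 was the highest of its genotype and still below every dmd1 library. The adjusted p missed 0.05 when wild-type library 1 (0.082) or 3 (0.0771) was omitted, and likewise for dmd1 library 1 (0.0664) or 2 (0.0819).

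MSTRG.19819 read 27.8, 46.4 and 32.4 FPKM in the wild-type libraries, against 98.4, 88.8 and 75.3 FPKM in dmd1. It rose 2.46-fold (log2 change 1.30 ± 0.22, limma adjusted p = 0.0164). The genotypes were well apart, but the adjusted p missed 0.05 when wild-type library 1 (0.0611) or 3 (0.0632) was omitted, and likewise for dmd1 library 2 (0.0698).

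MSTRG.3732 read 31.6, 46.5 and 27.9 FPKM in the wild-type libraries, against 75.4, 72.4 and 65.4 FPKM in dmd1. It rose 2.01-fold, and its log2 change of 1.02 ± 0.20 lay just past the fold minimum (limma adjusted p = 0.0266). It was the least firm of the 4 rises. Omitting any of 5 libraries ended the call, namely wild-type library 1 (adjusted p = 0.0991) and 3 (0.0805) and dmd1 library 1 (0.0765), 2 (0.0958) and 3 (0.056). Median-of-ratios scaling ended it too (log2 change 0.89).

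MSTRG.35097 was the single fall. Wild-type libraries held 83.8, 126 and 100 FPKM, and the dmd1 libraries were nearly equal at 44.2, 45.7 and 43.7 FPKM. The means were 103 ± 21.3 and 44.5 ± 1.00 FPKM (SD, n = 3), and the log2 change was -1.18 ± 0.17 (SE, limma adjusted p = 0.0114). Omitting dmd1 library 2 ended the call (adjusted p = 0.0563), as did equal FPKM totals, where the log2 change was -0.98.

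The estimated change was small in most of the 50 loci, but its median standard error was 0.31 log2 units. Larger changes in single loci are therefore not excluded. The log2 change was under 0.5 in size in 32, between 0.5 and 1 in 9, at least 1 upward in 7 and at least 1 downward in 2. For OS rows at the same level 74.9% were under 0.5, against 64% of the loci. The median log2 change of the 50 loci was 0.12, as it was over all rows tested, and that of the OS rows was 0.06.

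**Figure D3:**
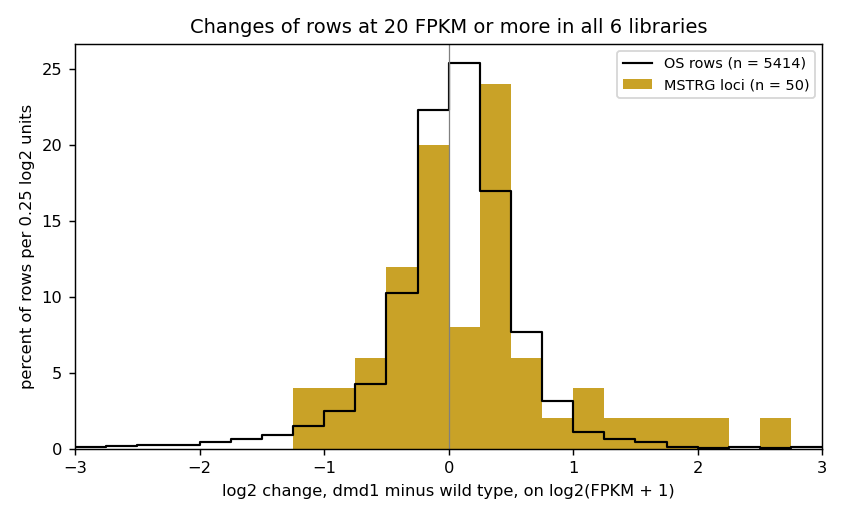
Distribution of the log2 change between dmd1 and wild type for the 50 MSTRG loci (bars) and the 5414 OS rows at the same level (line), as percent of rows per bin of 0.25, with OS rows beyond 3 log2 units not drawn. A log2 change of 1 or more upward is seen in 14% of the loci and 2.84% of OS rows, and downward in 4% and 4.67%.

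A further 4 loci had log2 changes of at least 1 that missed the adjusted p, of which the 3 other than MSTRG.2318 were picked out by their values. MSTRG.24519 held 27.7, 94.9 and 23.2 FPKM in wild type and 308, 137 and 89.7 in dmd1, so that wild-type library 2 overlapped dmd1 library 3 (log2 change 1.95 ± 0.65, limma adjusted p = 0.0965). It passed with wild-type library 2 left out (2.57, limma adjusted p = 0.0381), with equal totals (0.0275) and with quantile normalization (0.0435). The other 5 omissions gave log2 changes from 1.46 to 2.35 and adjusted p from 0.0977 to 0.239.

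MSTRG.28934 held 41.6, 79.3 and 27.4 FPKM in wild type and 119, 110 and 89.8 in dmd1, without overlap (log2 change 1.21 ± 0.37, limma adjusted p = 0.0798). It also passed without wild-type library 2 (adjusted p = 0.0179), with equal totals (0.00847) and with quantile normalization (0.0245). Without wild-type library 3 the log2 change was 0.87 (adjusted p = 0.163), under the fold minimum. MSTRG.10015 held 62.6, 91.1 and 57.8 FPKM in wild type and 24.2, 55.9 and 21.5 in dmd1 (log2 change -1.14 ± 0.38, limma adjusted p = 0.0983). Its dmd1 library 2 came close to the wild-type range, and without that library the log2 change was -1.56 (adjusted p = 0.0429). It was -0.89 without dmd1 library 3 (adjusted p = 0.21), -0.94 without wild-type library 2 (0.187), -0.97 when dmd1 library 1 was omitted (0.232) and -0.77 when the latter pair were omitted together (0.319).

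The reverse case was MSTRG.37184, a small change between very even libraries. It held 25.6, 27.0 and 27.6 FPKM in wild type and 39.3, 43.5 and 41.2 in dmd1, a ratio of 1.55 (log2 change 0.61 ± 0.11, limma adjusted p = 0.0189). It passed the adjusted p alone and not the fold minimum, and was picked out by its values. The adjusted p was 0.0623 with the replicate block. Omitting either of wild-type libraries 1 and 3, or either of dmd1 libraries 2 and 3, gave 0.0521 to 0.0886. On the adjusted p alone 6 of the 50 loci passed (12%), against 13% of all rows tested and 14.5% of OS rows at the same level.

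In 12 of the 50 loci (24%) the libraries of one genotype all lay above those of the other, 10 higher (20%) and 2 lower (4%) in dmd1. Among all rows tested 38.4% were free of overlap, 25.3% higher and 13.1% lower in dmd1. Among OS rows at the same level the share was 40.1%, with 23.6% higher and 16.4% lower. The loci separated the genotypes in a smaller share of cases than the other rows did, a description without a test.

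The spread between libraries of one genotype was wider for the MSTRG loci than for OS rows of the same level. In wild type the median coefficient of variation (SD over mean, n = 3) was 30.1% for the 50 loci and 14.0% for the OS rows. In dmd1 it was 28.1% and 11.7%. A coefficient above 25% was found in 32 of 50 loci in wild type and 30 of 50 in dmd1, against 21.8% and 15.9% of OS rows. On a log2 scale the ratio of the medians was 2.11 in wild type and 2.53 in dmd1. The median standard error of the log2 change was 0.31 for the loci and 0.16 for the OS rows.

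**Figure D4:**
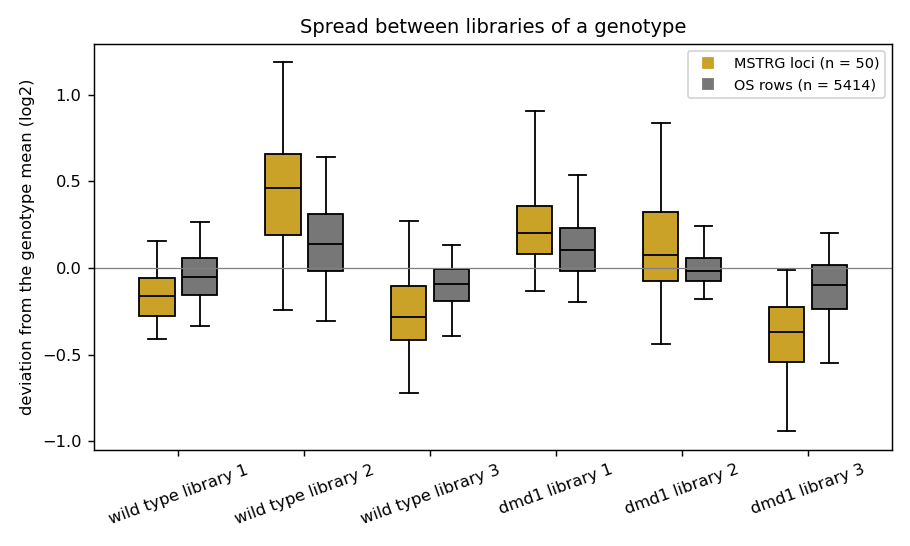
Deviation of each library from the mean of its genotype, in log2(FPKM + 1), for the 50 MSTRG loci and 5414 OS rows, with the median, the quartiles (box) and the 5th and 95th percentiles (whiskers). Wild-type library 2 lies highest and dmd1 library 3 lowest, with larger medians for the loci.

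This spread had a direction. Wild-type library 2 was the highest of its genotype in 39 of 50 loci, and dmd1 library 3 the lowest in 43 of 50 and the highest in 0. Among OS rows wild-type library 2 was highest in 66.1%, and dmd1 library 3 was lowest in 58.3% and highest in 21.5%. Wild-type library 2 also had the highest FPKM total of its genotype (1287424), and dmd1 library 3 the lowest of its genotype (808227). The part of the totals in this direction was not tested. The median deviation of wild-type library 2 from its genotype mean was 0.46 log2 units for the loci and 0.14 for the OS rows, and that of dmd1 library 3 was -0.37 and -0.10. In 27 of the 50 loci wild-type library 2 exceeded 1.5 times both other wild-type libraries, as it did in 14.2% of OS rows. Wild-type library 2 (59.0) and dmd1 library 3 (-49.4) also stood at opposite ends of the main axis of spread within genotypes. The part of that axis in the changes was not tested. Over the 50 loci, the median log2 difference of dmd1 library 1 from wild-type library 2 was -0.02, and that of dmd1 library 3 from the mean of wild-type libraries 1 and 3 was 0.0025. Both differences, from a division of the libraries made after that axis was seen, had the same sign in 42 of 50 loci (84%), 78.7% of OS rows and 75.7% of all rows tested. For MSTRG.22747 these values were 2.31 and 2.41, for MSTRG.39715 1.26 and 1.87, for MSTRG.19819 1.07 and 1.30, for MSTRG.3732 0.69 and 1.11, and for MSTRG.35097 -1.49 and -1.05. Each such value uses 1 or 2 libraries of a genotype and has no test, and dmd1 library 2 enters neither difference. These called loci have no overlap between genotypes, so the shared sign was fixed in advance and does not bear on the axis.

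The extremes of this spread were named after their values were seen. MSTRG.2220 had the widest by its mean coefficient of variation, at 46.3, 159 and 29.0 FPKM in wild type and 66.3, 26.7 and 26.5 in dmd1. Wild-type library 2 and dmd1 library 1 carried most of its signal. MSTRG.26698 was among the most even, at 89.7, 82.9 and 76.6 FPKM in wild type and 96.1, 97.9 and 84.2 in dmd1.

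Against the common direction, 7 loci were lowest in wild-type library 2. In 4 of them, MSTRG.33144, MSTRG.33155, MSTRG.16851 and MSTRG.23502, wild-type library 3 was also the highest of its genotype, dmd1 library 2 the highest and dmd1 library 3 the lowest. MSTRG.16851 held 102, 88.9 and 132 FPKM in wild type and 89.3, 144 and 39.4 in dmd1. MSTRG.23502 held 117, 86.0 and 152 FPKM in wild type and 63.2, 126 and 35.0 in dmd1. A low wild-type library 2 with a high dmd1 library 2 and a low dmd1 library 3 was found in 8% of the loci and 2.11% of OS rows. None of the 4 passed the test between genotypes (limma adjusted p from 0.292 to 0.724).

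The 46 loci that met the level in 1 genotype only were chosen by being high there, so their differences are given without a test. Of the 22 loci that met it in wild type only, 8 reached 20 FPKM in 2 dmd1 libraries, 8 in 1 and 6 in none. Of the 24 that met it in dmd1 only, 7 reached it in 2 wild-type libraries, 11 in 1 and 6 in none. Of 810 OS rows at the level in wild type only, the counts were 319, 216 and 275. Of 942 in dmd1 only they were 323, 265 and 354. The log2 change was under 0.5 in size in 4 of the 22 and in 11 of the 24, against 243 and 459 of these OS rows. In 17 of the 24 the lowest dmd1 library was under 25 FPKM, against 595 of 942 OS rows. In 8 of the 22 the lowest wild-type library was, against 335 of 810 OS rows. The median log2 change was -0.88 in the first class and 0.78 in the second, and for OS rows chosen in the same way -0.96 and 0.51.

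**Figure D5:**
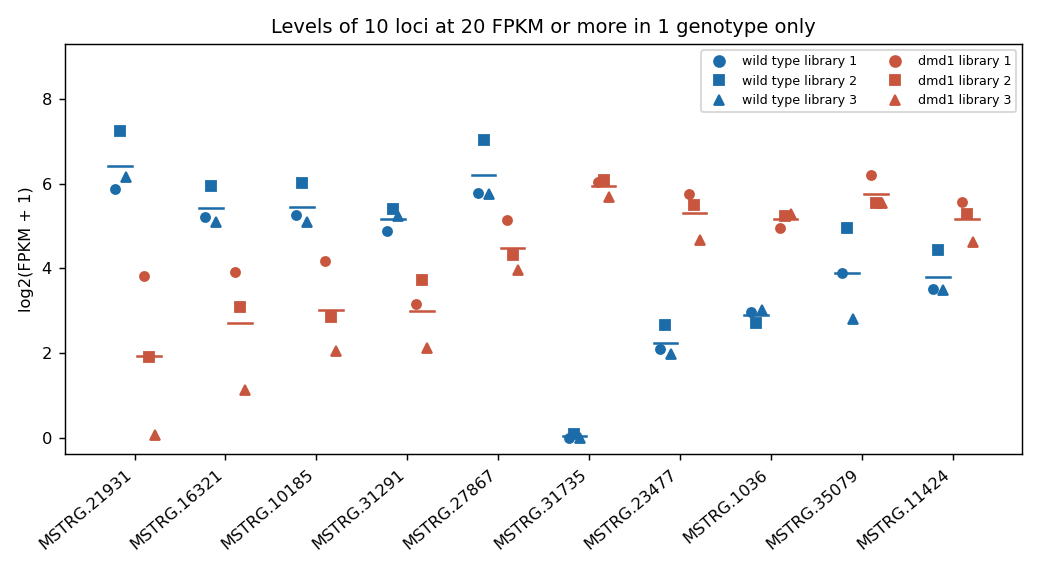
Level as log2(FPKM + 1) of the 5 loci with the largest change in each class of loci at 20 FPKM or more in 1 genotype only, with a symbol per library and a bar at the mean of 3. MSTRG.31735 is at or near 0 in the wild-type libraries, and MSTRG.21931 spans a wide range in dmd1.

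MSTRG.31735 had the largest log2 change of the 96 loci, in the same levels that admitted it. Wild-type libraries 1, 2 and 3 listed it at 0, 0.063 and 0 FPKM, while dmd1 libraries 1, 2 and 3 held 65.1, 66.6 and 50.8 FPKM. The dmd1 libraries were even, and the wild-type libraries were at or next to 0, so no fold is given. Its log2 change was 5.91 with a pseudocount of 1 and 9.01 with a pseudocount of 0.1. Leaving out each library in turn gave 5.84 to 6.03 with a pseudocount of 1.

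MSTRG.23477 read 3.30, 5.28 and 2.95 FPKM in the wild-type libraries, against 53.4, 44.4 and 24.6 FPKM in dmd1, a ratio of means of 10.6. MSTRG.1036 read 6.83, 5.58 and 7.06 FPKM in the wild-type libraries, against 30.0, 36.8 and 38.1 FPKM in dmd1, a ratio of 5.39. Its order of libraries departed from the common one, since dmd1 library 3 was the highest. MSTRG.35079 held 13.9, 29.8 and 5.97 FPKM in wild type and 72.2, 45.9 and 45.3 in dmd1, and MSTRG.11424 held 10.4, 20.4 and 10.1 FPKM and 46.7, 38.2 and 23.6. In both, wild-type library 2 was above 20 FPKM while the other wild-type libraries were not.

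Among the loci that met the level in wild type only, MSTRG.21931 had the widest difference. It read 57.4, 152 and 70.5 FPKM in the wild-type libraries, against 13.1, 2.73 and 0.051 FPKM in dmd1, a ratio of wild type to dmd1 means of 17.6. The dmd1 libraries differed widely among themselves, in the order of libraries 1, 2 and 3. Its log2 change was -4.50, and it was -5.44 with dmd1 library 1 omitted and -3.57 with dmd1 library 3 omitted.

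MSTRG.16321 held 36.3, 60.2 and 33.3 FPKM in wild type and 14.0, 7.53 and 1.18 in dmd1. MSTRG.10185 held 37.3, 63.6 and 33.1 FPKM in wild type and 17.1, 6.26 and 3.11 in dmd1. Both repeated that order in dmd1, and omitting dmd1 library 3 moved their log2 changes from -2.71 to -1.92 and from -2.43 to -1.94. MSTRG.27867 did too, at 54.0, 131 and 53.1 FPKM in wild type and 34.4, 19.0 and 14.6 in dmd1. MSTRG.31291 did not, with 28.6, 41.5 and 36.4 FPKM in wild type and 7.94, 12.1 and 3.36 in dmd1. The order, noticed after the values were seen, held in 11 of the 22 loci (50%) and 59.1% of OS rows chosen in the same way. It was as frequent in the loci at the level in all 6 libraries (25 of 50, 50%), against 46% of such OS rows. Over all rows tested it held in 37.3%, and in 8 of the 10 tapetum genes. The FPKM totals of the dmd1 libraries ran in the same order (1050340, 909829 and 808227). The parts of tapetal RNA and of the totals in the levels of these loci were not tested.

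At the edge of the level, MSTRG.39226 was just inside, with a lowest wild-type value of 20.02 FPKM, and so was MSTRG.5264, at 20.05 FPKM. Just outside were MSTRG.7014, whose lowest dmd1 library had 19.92 FPKM, and MSTRG.34626, at 19.85 FPKM. MSTRG.7014 held 7.07, 18.0 and 8.18 FPKM in wild type and 26.4, 29.9 and 19.9 in dmd1, without overlap.

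A further 2414 MSTRG rows were tested that did not reach 20 FPKM in all 3 libraries of either genotype, though some did in single libraries. Of these 9.61% were called, with 166 risen (6.88%) and 66 fallen (2.73%) in dmd1. Of the 15366 OS rows that likewise missed the level 4.15% were called, with 2.1% risen and 2.06% fallen (limma, by the call rule above). Over all rows tested the share was 6.71%. The median of the mean levels was 2.65 FPKM for these MSTRG rows and 5.85 FPKM for these OS rows, so levels differed. A row of either kind could pass the filter of 1 FPKM in 3 libraries through 1 genotype alone. The difference between the kinds of row was not tested.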

How the data were processed

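The authors deposited 1 table of FPKM values with a column per library. Per the submitters' processing notes, fastp, HISAT and RSEM were run on the build IRGSP-1.0, with no role or version stated. Annotation, assembler, strand setting and filters were not stated in what was used here, so reads of a locus and of an overlapping gene cannot be told apart. Because FPKM is not a count, count models and counting intervals were not used, and absolute depth is unknown.

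The 25474 rows with 1 FPKM or more in at least 3 of 6 libraries were tested, all 96 loci among them. Differences (dmd1 minus wild type) came from limma 3.58.1 in R 4.3.3 (eBayes, trend and robust, no replicate block) on log2(FPKM + 1), which understates changes of low rows. Benjamini-Hochberg adjustment covered every tested row, and calls needed adjusted p below 0.05 together with 1 log2 unit of change. The fit was also run on simulated rows with independent noise, which lacked the axis of spread shared by the libraries. The planted changes were larger than those of most called loci. That run therefore does not bear on the axis or on changes of the size seen in most of these loci.

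The loci, gene lists and tests were chosen with earlier results of these data known. Gene symbols of the tapetum, green tissue and dividing cell lists were not checked against an annotation. Named loci are the 6 most abundant of those at the level in all 6 libraries, up to 6 rises and 6 falls with the smallest p, the 5 largest log2 changes per genotype among loci at the level in 1 genotype only, and the 2 loci on either side of the level. Others were picked out by their values. No pair of libraries held identical values.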

Additional observations from a re-analysis of the deposited data

How the results depend on the processing

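The 5 calls among the 50 loci became 8 (16%) with quantile normalization, which called 7.64% of all rows and 6.91% of the OS rows. They became 7 of 139 loci (5.04%, below the 6.71% of all rows) at a level of 10 FPKM. At a level of 50 FPKM, 11 loci were left and 0 were called (smallest adjusted p = 0.108 in limma, and 1 locus with an unadjusted p under 0.05). Leaving out single libraries gave 2 to 7 calls among the loci, 671 to 1605 over all rows against 1709, and 116 to 325 among OS rows against 310, with fewer residual degrees of freedom. Without wild-type library 2 and dmd1 library 1 together, chosen after seeing the data, 7 loci (14%) were called. So were 6.42% of all rows and 6.43% of OS rows at the same level. The median change over all rows was 0.12, against 0.29 for equal totals and 0.01 for median-of-ratios scaling. At 10 FPKM, 278 loci met the level (139 in both genotypes, 61 in wild type only, 78 in dmd1 only), at 50 FPKM 28 (11, 9 and 8), and with genotype means 156 (82, 32 and 42). The loci's mean share of summed FPKM was 0.542% in wild type and 0.768% in dmd1, with 0.791% and 1.07% at 10 FPKM, 0.341% and 0.535% at 50 FPKM, and 0.648% and 0.897% with genotype means. Signs turned in loci that were not called. Equal totals gave 0.0079 for MSTRG.38131 and 0.20 for MSTRG.29440, quantile normalization 0.074 for MSTRG.29440, and leaving out wild-type library 2 with dmd1 library 1 0.038 and 0.12. Over single libraries left out, MSTRG.38131 ran from -0.39 to 0.13, MSTRG.29440 from -0.098 to 0.16, MSTRG.33144 from -0.69 to 0.22, MSTRG.33155 from -0.67 to 0.23 and MSTRG.16851 from -0.83 to 0.092. The cause was not tested.

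The replicate numbers are not said to pair the libraries, and same-numbered libraries had correlations of -0.35, -0.01 and 0.35 between their deviations. With the replicate block 6 of the 50 loci were called, the same 5 and MSTRG.10015 (adjusted p = 0.0457), and 1395 of all rows.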

Other observations

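Of the MSTRG rows that missed 20 FPKM in at least 1 library of each genotype, those called were ranked by size of change. The extremes of that ranking are named here, and their values are a description. MSTRG.6534 and MSTRG.35024 passed the filter of 1 FPKM in 3 libraries through their dmd1 libraries alone. For MSTRG.32763 the wild-type libraries alone met that filter. The calls of these rows are therefore not read as a test. MSTRG.6488 was above 1 FPKM in every library. MSTRG.6534, at 0, 0.378 and 0 FPKM in wild type and 17.3, 16.1 and 7.85 in dmd1, and MSTRG.35024, at 0 in every wild-type library and 42.6, 5.76 and 4.58 in dmd1, had the largest log2 differences toward dmd1. The largest toward wild type were in MSTRG.32763, at 17.2, 17.4 and 11.6 FPKM in wild type and 2.66, 0.334 and 0 in dmd1, and in MSTRG.6488, at 28.6, 50.2 and 19.2 and 4.21, 1.72 and 1.94 FPKM. Of all MSTRG rows, 13 were listed at 0 in every wild-type library with at least 1 FPKM in every dmd1 library, and 4 the other way, which is 0.443% and 0.136% of 2933 rows. Of 37830 OS rows 5 and 3 were so, which is 0.0132% and 0.00793%.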
